A study of Homo sapiens with 9 samples.

Results

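The genes described here are 37 genes for protein-folding chaperones and for the unfolded protein response, taken as a list of named genes: 23 act in or at the endoplasmic reticulum (ER), 12 in the cytosol (the heat shock transcription factor HSF1 among them) and 2 in the mitochondrion. A gene was counted as measured where a probe set of the array was annotated to it alone, and its brightest such probe set was used. By this rule 36 of the 37 genes were measured, among 19775 genes in all, and 88 of the 41091 single-gene probe sets belonged to them. HSPA8, the constitutive cytosolic HSP70, has 4 probe sets on the array, each of which also lists another gene, so no value is given for it.

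RNA came from HT1080 cells, an established human fibrosarcoma line, seeded on top of fibrillar bovine dermal collagen (1.7 mg/ml, polymerized for 4 h) in medium with 10% serum and left for 24 h to adhere before treatment. The treated cells received a protease inhibitor (PI) mix of 100 µM GM6001, which blocks matrix metalloproteinases, 50 µM pepstatin A, which blocks aspartic proteases, 250 µM E64, which blocks cysteine proteases, and aprotinin and leupeptin at 2 µM each. Groups were PI for 4 h, PI for 24 h and untreated, with 3 one-colour Affymetrix arrays in each and 9 in all; the submitters call the replicates biological, and all groups are the same line on the same matrix. The title of each untreated sample says vehicle, but which vehicle was used, and when these cells were harvested, is not stated. The series' design text speaks of kinase inhibitors where the treatment protocol and titles speak of protease inhibitors, and the protocol is followed here.

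The ER folds secreted and membrane proteins with an HSP70 (HSPA5, also called BiP), an HSP90 (HSP90B1), their J-domain partners, the lectin chaperones calnexin and calreticulin, and the protein disulfide isomerases. Unfolded protein in the ER is sensed by ERN1 (IRE1), ATF6 and EIF2AK3 (PERK). The ERN1 and ATF6 branches are known to raise transcription of many of these genes, in part through the ER stress response element (ERSE) in the genes' promoters. Unfolded protein in the cytosol acts through HSF1 and the heat shock element (HSE) on a separate set of genes, such as DNAJB1 and HSPH1. Fibroblast-like cells that secrete collagen also need SERPINH1 (HSP47), the ER chaperone of procollagen, and P4HB, a disulfide isomerase that is also the beta subunit of collagen prolyl 4-hydroxylase.

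Promoter elements of these systems are shown because the compartments are compared throughout. RefSeq promoters (GRCh38.p14) were found for 34 of the 37 genes, and the 250 bases before each start were searched on both strands. The ERSE was taken as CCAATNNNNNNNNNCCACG, with any 9 bases between its ends. It was present in 7 of 22 ER genes (31.82%), in 0 of 10 cytosolic genes and in 26 of 35116 promoters in all (0.07%). The 8 matches are printed 5′ to 3′ on the gene's strand with 10 bases on either side, and capitals mark the CCAAT and CCACG ends or their reverse complements:
CALR, chr19:12938374-12938412, plus strand: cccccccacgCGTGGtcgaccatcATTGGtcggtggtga
CANX, chr5:179698768-179698806, plus strand: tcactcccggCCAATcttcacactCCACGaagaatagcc
CRELD2, chr22:49918544-49918582, plus strand: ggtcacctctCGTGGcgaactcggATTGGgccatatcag
HSP90B1 distal, chr12:103930206-103930244, plus strand: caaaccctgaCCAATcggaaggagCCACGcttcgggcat
HSP90B1 proximal, chr12:103930311-103930349, plus strand: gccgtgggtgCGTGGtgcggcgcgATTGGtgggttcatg
HSPA5, chr9:125241381-125241419, minus strand: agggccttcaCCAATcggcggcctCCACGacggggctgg
SERP1, chr3:150546700-150546738, minus strand: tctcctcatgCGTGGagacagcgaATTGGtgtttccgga
XBP1, chr22:28800593-28800631, minus strand: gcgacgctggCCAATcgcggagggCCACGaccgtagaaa

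HSP90B1 thus holds a pair of matches in opposite orientation, and the HSPA5 and XBP1 matches lie closest to the start. The HSE was taken as GAANNTTC or TTCNNGAA, each of which reads the same on both strands, and was found in 3 of 10 cytosolic genes (DNAJA1, HSPA8 and HSPB1), in 1 of 22 ER genes and in 11.58% of all promoters. DNAJB1 and HSPH1 had no HSE match in this window. The 1 ER gene is SERPINH1, which had the lowest log2 difference of the 36 genes at 24 h. Its 250 bases are printed with 2 overlapping HSE matches in capitals, the first starting 76 bases and the second ending 64 bases before the start:
SERPINH1, chr11:75562003-75562252, plus strand: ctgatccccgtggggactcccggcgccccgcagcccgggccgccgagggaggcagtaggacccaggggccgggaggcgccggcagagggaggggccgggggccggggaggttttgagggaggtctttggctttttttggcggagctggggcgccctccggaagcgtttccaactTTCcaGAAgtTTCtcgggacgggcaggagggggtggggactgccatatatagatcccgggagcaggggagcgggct

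The core of the unfolded protein response element, GACGTG on either strand, whose complement CACGTC shares CACG with the end of the ERSE, was found in 2 of 22 ER genes, 2 of 10 cytosolic genes and 6.5% of all promoters. A match describes letters in the window and is not a measured binding site. At 24 h the 7 ER genes with an ERSE had a median log2 difference of -0.13 (3 above 0, 4 below). The 15 without one had a median of 0.13 (8 above 0, 7 below). At 4 h the medians were -0.0001 and 0.01. These use the brightest probe set. HSP90B1, CALR and SERP1 with an ERSE, and DNAJC3 and ATF6 without, had another probe set over 100 in mean intensity with the opposite sign at 24 h.

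Values are the authors' intensities, each array scaled to a 2% trimmed mean of 100, and differences are PI minus untreated on log2(intensity + 16), where 16 is a pseudocount that shrinks differences of dim genes. The cells carried mesenchymal markers (VIM averaged 10469, CD44 3764 and SPARC 2853 over 9 arrays), while COL1A1 was dim at 17.4 to 67.6. The epithelial markers EPCAM and CDH1 and the leukocyte markers PTPRC, CD14 and CD3E were below 16.5 on every array, although the keratins KRT8 and KRT18 averaged 553 and 3913. KRT5, KRT14, VWF and CDH5 averaged 4.26 to 7.53 and PECAM1 37.5. The ratio of the 5′ to the 3′ ACTB control, a sign of RNA or label quality, was 0.855 to 0.922 on untreated arrays, 0.615 to 0.871 at 4 h and 0.654 to 0.727 at 24 h. The same ratio of the GAPDH control was not lower on PI arrays. It was 1.0478 to 1.0493 on untreated arrays, 1.0486 to 1.1048 at 4 h and 1.0613 to 1.0975 at 24 h. The mean log2 signal of the poly-A spike controls was 9.37 to 9.52, 10.15 to 10.55 and 10.70 to 10.77 in the same order. The ACTB ratio and the spike signal differed between PI and untreated arrays. The part of these measures in the results below was not tested. Replicate 2 of the 4 h group stood apart from its group: on the first principal component of all genes (20.96% of the variance) it was at -13.4, against 8.63 and 15.5 for the remaining 4 h arrays, and -23.3 to -18.2 for the untreated arrays. It was also the 4 h array with the ACTB ratio of 0.871.

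None of the 36 measured genes passed the test (limma, Benjamini-Hochberg adjusted p under 0.05 over all 19775 genes, two-sided) at 4 h or at 24 h or between the times. Over all genes 0.248% passed at 4 h, 0.465% at 24 h and 0.142% between 24 h and 4 h. At an unadjusted p under 0.05, 2 genes were higher and 5 lower at 4 h, against 12.4% of all genes. At 24 h, 5 were higher and 4 lower, against 15.8% of all genes. Between the times, 1 was higher and 1 lower, against 11.3%. Standard errors of the members' log2 differences ran from 0.10 to 0.26 with a median of 0.14. The 95% interval stayed within a 2-fold change (log2 of -1 to 1) for 35 of 36 genes at 4 h and 33 at 24 h. Smaller changes than this were often not resolved with 3 arrays a group. The 4 h and 24 h comparisons share the untreated arrays.

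**Figure D1:**
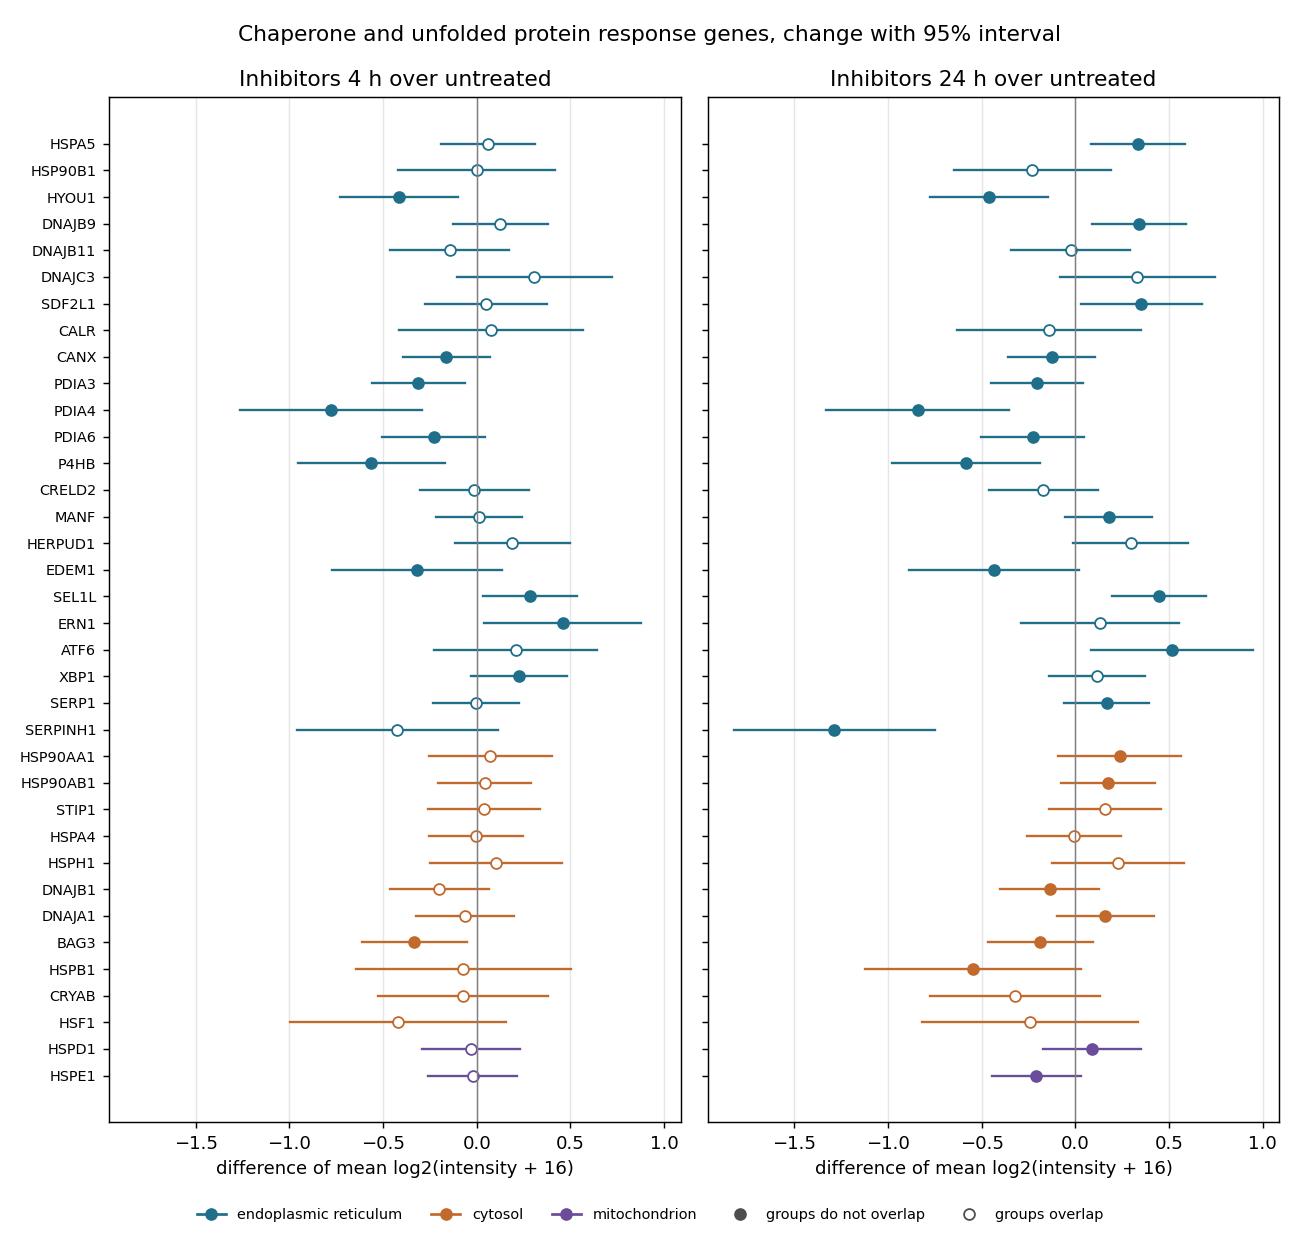
Log2 difference of each measured gene, PI 4 h minus untreated and PI 24 h minus untreated, with the 95% interval from the limma fit (n = 3 arrays per group). SERPINH1 at 24 h (-1.29) lies farthest from 0, PDIA4, P4HB and HYOU1 lie below 0 at both times, and SEL1L, HSPA5 and DNAJB9 lie above 0 at 24 h.

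Among the ER chaperones the values farthest below untreated belonged to SERPINH1, the procollagen chaperone, whose single probe set had intensities of 362.2, 380.3 and 388.9 on untreated arrays, 269.8, 391.3 and 199.6 at 4 h, and 110.1, 190.3 and 144.5 at 24 h. All 3 arrays at 24 h lay below all others, and at 4 h replicate 2 lay above all untreated arrays while the other two lay below them. In bulk RNA such as this, fewer cells with a transcript and less of it per cell cannot be told apart. At 24 h it averaged 148 ± 40.2 in PI cells and 377 ± 13.6 in untreated cells (SD, n = 3 each), a 2.44-fold lower level (log2 -1.29, SE 0.24, 95% interval -1.82 to -0.75, limma adjusted p = 0.0543). Its difference was at percentile 0.0303 among all genes, and its unadjusted p of 0.00036 was above 0.000231, the largest that passed. The 4 h difference was -0.42 (adjusted p = 0.524), or -0.66 without replicate 2 (adjusted p = 0.202), and 24 h against 4 h it was -0.86 (adjusted p = 0.213). Over the alternative settings the adjusted p at 24 h ran from 0.0161 to 0.186. Leaving out 4 h replicate 2, an array that enters only the estimate of spread here, gave 0.0307, and leaving out 4 h replicate 3 gave 0.048.

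**Figure D2:**
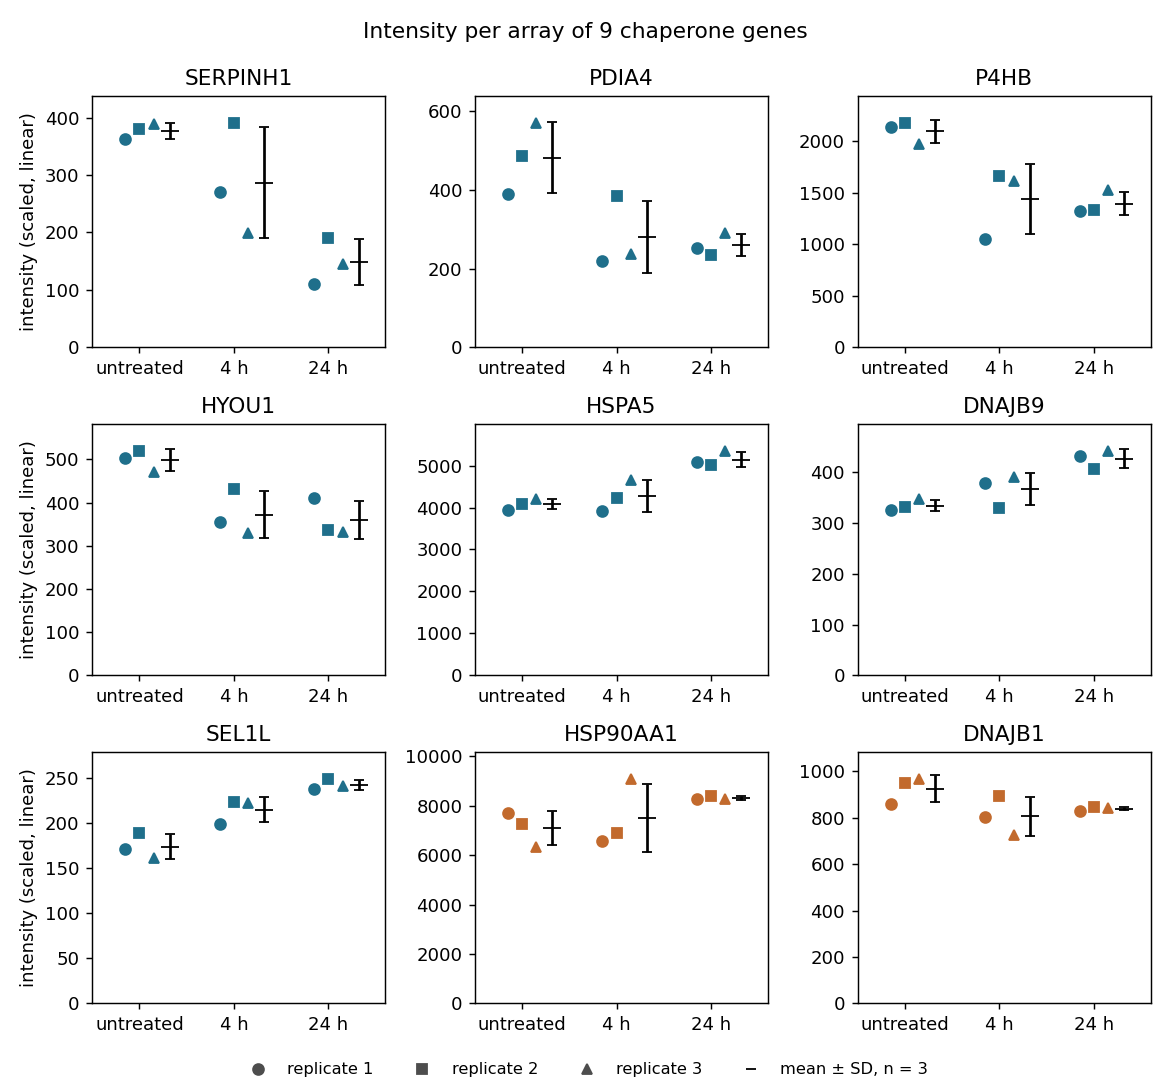
Scaled intensity (linear axis starting at 0) of 9 genes on each array, with untreated, PI 4 h and PI 24 h from left to right, a symbol for each replicate, and the mean ± SD of 3 arrays beside them. SERPINH1 is at 110.1 to 190.3 on the 24 h arrays and 362.2 to 388.9 on the untreated arrays, and SEL1L is at 237.7 to 249.3 and 162 to 189 on the same arrays.

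All 4 protein disulfide isomerases, which form and rearrange disulfide bonds, had lower intensities on every PI array than on any untreated array, at 4 h and at 24 h. Groups that did not overlap in this direction made up 8.14% of all genes at 4 h and 12.2% at 24 h, and 13.8% and 22% of the 7054 genes with a mean intensity of at least 100. PDIA4 (ERp72) had intensities of 390.3, 485.8 and 570.5 on untreated arrays, 218.4, 385.1 and 236.9 at 4 h, and 253.4, 234.9 and 291.5 at 24 h. At 4 h it was 1.71-fold lower (log2 -0.78, SE 0.22, limma adjusted p = 0.204), and at 24 h 1.79-fold lower (log2 -0.84, SE 0.22, adjusted p = 0.110). Replicate 2 of the 4 h group was just below the lowest untreated array, and the other PI arrays lay between 218.4 and 291.5. A dimmer second probe set of PDIA4 had log2 differences of 0.02 at 4 h and -0.10 at 24 h, so the lower signal was seen with 1 of its 2 probe sets, and their mean gave -0.38 and -0.47. Without 4 h replicate 2 the 4 h difference was -1.02 (adjusted p = 0.0641) and the adjusted p at 24 h was 0.0494, past the threshold. All 4 isomerases also lay below 0 at both times with quantile normalization, median centring, the mean over probe sets and pseudocounts of 1 and 64.

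P4HB, the isomerase shared with collagen prolyl 4-hydroxylase, had 2134.7, 2177.2 and 1969.3 on untreated arrays, 1050.9, 1657.6 and 1616.1 at 4 h, and 1323.1, 1332.4 and 1521.6 at 24 h. It was 1.48-fold lower at 4 h (log2 -0.56, SE 0.18, adjusted p = 0.241), and its 24 h difference was -0.58 (SE 0.18, adjusted p = 0.148). The 4 h array of replicate 1 was the lowest of all, and without it the 4 h difference was -0.35. Its other two probe sets had log2 differences of -0.73 and -0.47 at 4 h and -0.77 and -0.65 at 24 h, so all 3 were lower at both times. In the fit over single probe sets the adjusted p of the -0.77 was 0.0923.

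PDIA6 and PDIA3, the partner of the lectin chaperones, differed less. PDIA6 had 1778.3, 1775.1 and 1763.3 on untreated arrays, 1399.2, 1398.1 and 1756.9 at 4 h, and 1570.5, 1501.5 and 1466.5 at 24 h, with log2 differences of -0.23 at both times (adjusted p = 0.495 and 0.414). The 4 h array of replicate 3 was barely below the lowest untreated array. All 4 PDIA6 probe sets were below 0 at both times, the other three at -0.45, -0.35 and -0.36 at 4 h and at -0.48, -0.53 and -0.38 at 24 h. PDIA3 had 1751.3, 1894.9 and 1883.8 on untreated arrays, 1436.6, 1495.4 and 1514.9 at 4 h, and 1464.8, 1624.4 and 1708.4 at 24 h. Its log2 difference was -0.31 at 4 h (adjusted p = 0.297) and -0.21 at 24 h (adjusted p = 0.413).

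The HSP70 and HSP90 system of the ER was not uniform. HSPA5, the ER HSP70, had 3951.9, 4096.4 and 4194.7 on untreated arrays, 3922.2, 4226.3 and 4666.2 at 4 h, and 5080.4, 5004.3 and 5350.5 at 24 h. Its 4 h arrays overlapped the untreated ones, and its 24 h arrays lay above both groups. The difference was 0.06 at 4 h (adjusted p = 0.881) and 0.33 at 24 h, 1.26-fold (SE 0.11, 95% interval 0.08 to 0.58, adjusted p = 0.186). A 2-fold induction of HSPA5, a common readout of the unfolded protein response, was outside this interval, which is that of the brightest probe set. The second HSPA5 probe set, with a mean intensity of 263, had log2 differences of 0.12 at 4 h and 0.07 at 24 h. For 24 h against 4 h it was at -0.05, so the rise at 24 h was seen mainly with the brightest probe set.

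DNAJB9 (ERdj4), a J-domain partner of HSPA5, had 325, 331.1 and 346.7 on untreated arrays, 379.7, 330.6 and 391.3 at 4 h, and 432.4, 406.1 and 442.3 at 24 h. The 24 h arrays were above both other groups, and the log2 difference was 0.13 at 4 h (adjusted p = 0.714) and 0.34 at 24 h (adjusted p = 0.182). All 3 of its probe sets were above 0 at 24 h, and 1 of them was below 0 at 4 h. SDF2L1, a soluble partner of the J-domain protein DNAJB11, had 359.7, 347.3 and 352 on untreated arrays and 465.6, 430.5 and 470.4 at 24 h (log2 0.35, adjusted p = 0.277). Its 4 h arrays, at 455.2, 307.5 and 350.6, lay on both sides of the untreated ones.

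HYOU1 (GRP170), which exchanges nucleotide on HSPA5, lay on the other side. It had 504, 519.5 and 470.8 on untreated arrays, 354.7, 432.1 and 328.8 at 4 h, and 410.7, 335.7 and 331.2 at 24 h. Every PI array was below every untreated array, with differences of -0.41 at 4 h (adjusted p = 0.274) and -0.46 at 24 h (adjusted p = 0.151). DNAJB11 was at -0.14 and -0.03 and DNAJC3 (p58IPK), another J-domain protein, at 0.31 and 0.33 at the same times, with overlapping groups. Of the 4 DNAJC3 probe sets, 3 were below 0 at 4 h.

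HSP90B1 (GRP94), the ER HSP90, gave 1301.9, 1184.2 and 1325.3 on untreated arrays, 961.2, 1312.5 and 1617.9 at 4 h, and 1218.5, 946.3 and 1091.1 at 24 h, with differences of -0.0001 at 4 h (adjusted p = 1) and -0.23 at 24 h (adjusted p = 0.609). Its second single-gene probe set read 103.2, 69.7 and 48.7 on untreated arrays, 185.7, 74.4 and 224.4 at 4 h, and 182.2, 207 and 290.9 at 24 h. That is a difference of 0.91 at 4 h (adjusted p = 0.383 over all probe sets) and 1.45 at 24 h (adjusted p = 0.118), so the 2 probe sets disagree, and 2 further probe sets of the gene list other genes too. No direction is given for HSP90B1.

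Calnexin and calreticulin, the lectin chaperones that hold glycoproteins, also depended on the probe set. CANX had 1854.3, 1838.7 and 1859 on untreated arrays, 1627.1, 1723.4 and 1607.2 at 4 h, and 1687.9, 1778.7 and 1616.2 at 24 h, lower on every PI array (log2 -0.16 and -0.13, adjusted p = 0.586 and 0.612). Its next brightest probe set was at -0.58 and -0.61, and another at -0.49 and -0.67. CALR was at 0.07 and -0.14 (adjusted p = 0.936 and 0.813), while its other two probe sets were at 0.29 and -0.65 at 4 h and at 0.49 and -0.62 at 24 h.

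SEL1L, the adaptor of the ubiquitin ligase that removes misfolded ER proteins, was higher on every PI array. It had 171.5, 189 and 162 on untreated arrays, 199.7, 223.7 and 222.8 at 4 h, and 237.7, 249.3 and 241.2 at 24 h. The differences were 0.28 at 4 h (adjusted p = 0.346) and 0.45 at 24 h, 1.36-fold (SE 0.11, adjusted p = 0.102). Of its 4 probe sets, 3 were below 0 at 4 h and 2 at 24 h, all of them under 100 in mean intensity. HERPUD1, a membrane protein of the same pathway, was at 0.19 and 0.30 (adjusted p = 0.635 and 0.335), and EDEM1, which delivers misfolded glycoproteins to it, at -0.32 and -0.44 (adjusted p = 0.585 and 0.338). EDEM1 was lower on every PI array, with 99.3 to 189.2 at 24 h and 201.2 to 218.6 untreated.

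The sensors ERN1 and ATF6 and the factor XBP1 had positive differences at both times with the brightest probe set. With the mean over probe sets, however, XBP1 was at -0.06 at 4 h and ERN1 at -0.09 at 24 h. The sensor EIF2AK3 is not on the list of named genes, and no value is given for it. XBP1, the transcription factor that ERN1 activates by splicing its mRNA, had 355.3, 398.6 and 380.1 on untreated arrays, 473.9, 427.2 and 435.1 at 4 h, and 437.1, 375.9 and 419.2 at 24 h. All 4 h arrays were above the untreated ones and the 24 h arrays overlapped them, with differences of 0.23 (adjusted p = 0.464) and 0.11 (adjusted p = 0.696). The array does not measure splicing, so XBP1 activation was not assessed. ERN1 was at 0.46 at 4 h (adjusted p = 0.364) with 23 to 52.5 units over 9 arrays, and ATF6 was at 0.52 at 24 h (adjusted p = 0.233), with 225.5, 255.8 and 283 in PI cells and 199, 169.2 and 152.1 in untreated cells. At 4 h ATF6 had 145, 233.7 and 240.2, on both sides of the untreated range. Of the 4 ATF6 probe sets, the next brightest averaged 107 in PI cells at 24 h and 129 in untreated cells, the opposite sign.

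Of the remaining ER members, MANF, a secreted ER stress factor, and SERP1, a translocon-associated protein, were higher at 24 h than on any untreated array, by 0.18 and 0.17 (adjusted p = 0.448 and 0.474). SERP1 depended on the probe set, since its other three were at -0.19, -0.09 and -0.45 at 24 h. CRELD2, another soluble ER stress factor, overlapped the untreated range at both times (-0.01 and -0.17).

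The cytosolic genes spanned log2 differences of -0.54 to 0.24 at 24 h, and the ER genes -1.29 to 0.52. HSP90AA1, the inducible cytosolic HSP90, had 7689, 7251.3 and 6323 on untreated arrays, 6567.3, 6889.6 and 9079.4 at 4 h, and 8282.8, 8407 and 8276.3 at 24 h. At 4 h replicates 1 and 2 lay within the untreated range and replicate 3 above it, and the 24 h arrays lay above it (log2 0.07, adjusted p = 0.897, and 0.24, adjusted p = 0.483). HSP90AB1, its constitutive relative, and STIP1, which links HSP70 to HSP90, were at 0.17 and 0.16 at 24 h.

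The heat shock targets had differences of both signs. DNAJB1, the classic HSF1 target and HSP70 partner, had 860.5, 950 and 966.9 on untreated arrays, 801.4, 892.4 and 723.6 at 4 h, and 831.2, 845.8 and 840.6 at 24 h. All 24 h arrays were below the untreated ones, by 0.14 (adjusted p = 0.633), and the 4 h difference was -0.20 (adjusted p = 0.545). HSPH1, an HSP110 that exchanges nucleotide on HSP70, had 1577.2, 1669.5 and 1354.2 untreated, 1966.9, 1383.2 and 1632.1 at 4 h, and 1604.5, 1938.6 and 1843.7 at 24 h (log2 0.10 and 0.23, with overlapping groups). The BAG-domain co-chaperone BAG3 was lower at 4 h, with 1077.2, 1376.3 and 1108.8 in PI cells and 1443.6, 1493.8 and 1535.2 in untreated cells (log2 -0.33, adjusted p = 0.323).

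DNAJA1, a further J-domain partner of cytosolic HSP70, had 3128.9, 2906.4 and 3603.4 at 4 h and 3875.7, 3603.4 and 3734.7 at 24 h, with 3317.7, 3388.7 and 3320.1 on untreated arrays (24 h log2 0.16, adjusted p = 0.561). HSPA4, an HSP110, was at -0.01 at both times. HSF1 itself was at -0.42 at 4 h (adjusted p = 0.567), with 76.4 to 177.7 on PI arrays and 125 to 166.5 on untreated arrays. The small heat shock proteins HSPB1 and CRYAB averaged 8.6 and 8.92 over 9 arrays, below the pseudocount, where a difference carries little information. HSPB1 had 4.2, 18.3 and 13.4 on untreated arrays, 4.8, 5.9 and 22.6 at 4 h, and 2.1, 2.6 and 3.5 at 24 h (log2 -0.54, adjusted p = 0.342).

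The mitochondrial chaperonin subunits HSPD1 and HSPE1 were at 0.09 and -0.21 at 24 h (adjusted p = 0.774 and 0.387). HSPD1 had 6937.6, 7094.8 and 6591.8 on untreated arrays, 6560.5, 6149.1 and 7542.1 at 4 h, and 7305.9, 7135.7 and 7499.7 at 24 h. Its 24 h arrays lay above the untreated ones, whereas HSPE1 lay below them.

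Set side by side, the medians of both compartments lay within 0.1 of 0 at 4 h and at 24 h. The median log2 difference of the 23 ER genes was -0.0001 at 4 h and -0.03 at 24 h, and that of the 11 measured cytosolic genes -0.06 and -0.01, with 0.01 over all genes at each time. ER minus cytosolic medians were 0.06 at 4 h and -0.02 at 24 h. With all genes of both lists, the SD of this difference between single arrays within a group was 0.04. It is not the error of a difference between group means. The 24 h cytosolic value rests on the dim HSPB1 and CRYAB. With genes below the 40th percentile of mean intensity left out, which removes both, the cytosolic median at 24 h was 0.16 and ER minus cytosolic was -0.18. At 4 h the same filter gave -0.0061 and 0.006. No SD was computed for the filtered lists. With the mean over probe sets, ER minus cytosolic was -0.0118 at 4 h and 0.03 at 24 h. As a mean per array, the ER genes were -0.06 ± 0.06 at 4 h and -0.07 ± 0.04 at 24 h from the untreated mean, and untreated arrays spread by 0.01 (SD, n = 3 each). By this ER mean every PI array lay below every untreated array. The range was -0.1317 to -0.0169 at 4 h, -0.0963 to -0.0232 at 24 h and -0.0116 to 0.006 untreated. A mean, unlike the median, is pulled by far values such as SERPINH1, and no mean without it was computed. By the same measure the cytosolic genes were -0.08 ± 0.07 and -0.04 ± 0.04, against 0.08 among untreated arrays. This cytosolic mean includes the dim HSPB1 (-0.54 at 24 h) and CRYAB (-0.32 at 24 h), and no mean without them was computed. Of the 11 cytosolic genes, 5 were above 0 and 6 below at 24 h.

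**Figure D3:**
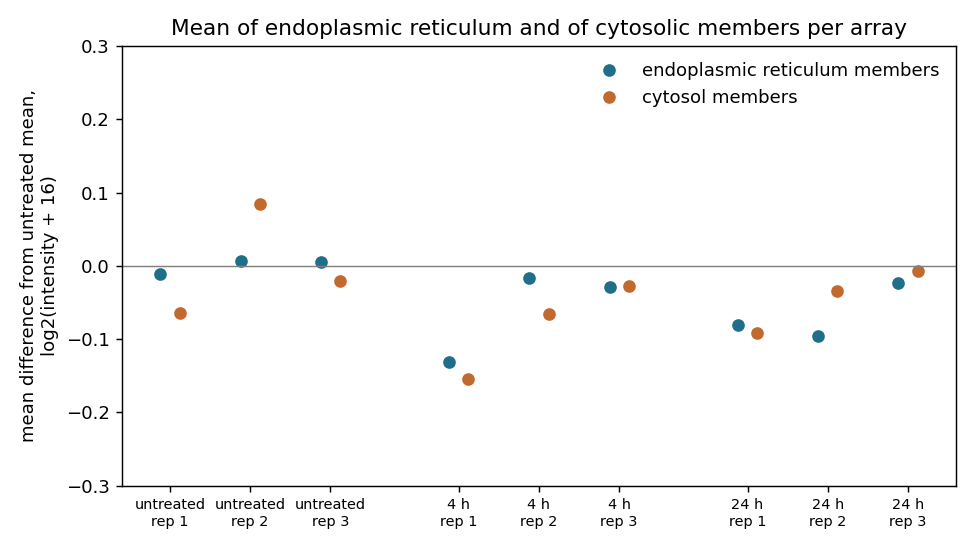
Mean log2 difference from the untreated mean for the ER genes and for the cytosolic genes on each array (n = 23 and n = 11 genes). All points lie between -0.1542 and 0.0844, and ER and cytosolic points overlap on PI and untreated arrays. Every PI array lies below every untreated array for the ER genes, and the cytosolic means include the dim HSPB1 and CRYAB.

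Groups that did not overlap were counted next. At 4 h, 3 genes were higher and 8 lower on every PI array, against 9.37% higher and 8.14% lower of all genes (17.5% together). At 24 h, 11 were higher and 12 lower, against 12.8% and 12.2% (25% together). Bright genes separated more often, so the 33 members with a mean intensity of at least 100 were also set against the 7054 such genes, a comparison added after the data were seen. Among them 10 of 33 (30.3%) separated at 4 h and 26.6% of the bright genes did, while at 24 h 22 of 33 (66.67%) separated and 45.3% of the bright genes did. Above the cut at 100 the members were not matched to the bright genes in intensity, and the part of brightness in these shares was not tested. The members were also chosen with earlier results of these data known, and the part of that choice was not tested. The 22 members at 24 h were 11 higher and 11 lower, against 23.3% and 22% of bright genes, and the 10 at 4 h were 2 higher and 8 lower, against 12.9% and 13.8%. Without 4 h replicate 2, 6 members were higher and 11 lower at 4 h (47.2%, against 32.3% of all genes), and among bright genes the share was 48.5% of members and 46.4% of all.

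Several genes were also measured by more than 1 probe set. None of the 88 probe sets was called, and among 25 genes with several, 15 at 4 h and 11 at 24 h had at least 1 probe set with a sign opposite to the brightest.

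**Figure D4:**
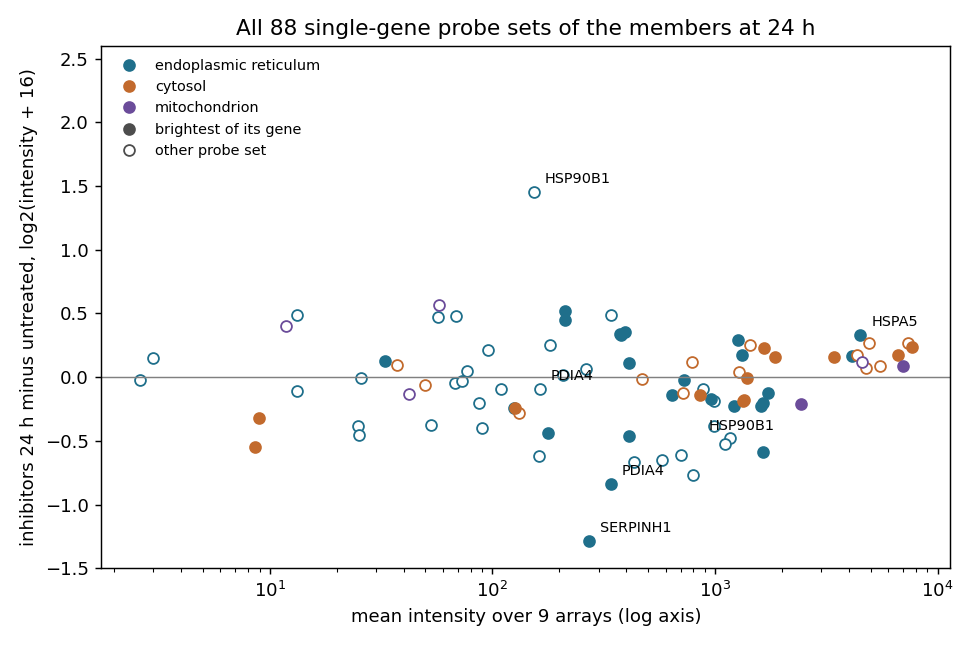
Log2 difference, PI 24 h minus untreated, of the 88 single-gene probe sets of the 36 genes against their mean intensity over 9 arrays (log axis), filled where the probe set is the brightest of its gene and coloured by compartment. The second HSP90B1 probe set is at 1.45 while its brightest is at -0.23, and the second PDIA4 probe set is near 0 while its brightest is at -0.84.

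Between PI 24 h and PI 4 h none of the 36 genes was called. The 5 with the smallest p were SERPINH1 (-0.86), HSPA5 (0.27, adjusted p = 0.409), SDF2L1 (0.30), DNAJA1 (0.22) and DNAJB9 (0.21). Groups did not overlap for 6 higher and 3 lower genes, against 7.35% and 7.85% of all genes (15.2% together), and SERPINH1 was the ER gene among the lower ones. Of the 33 bright members 8 separated (24.24%, 6 higher and 2 lower), against 22.6% of bright genes (12.4% and 10.2%). The ER median was 0.02 and the cytosolic median 0.12.

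In wider lists of the folding pathways, 0 of 57 further ER genes and 0 of 51 further cytosolic and mitochondrial chaperone genes passed the limma test in any of the 3 comparisons. At an unadjusted p under 0.05 the ER list had 5 higher and 5 lower at 4 h and 13 higher and 4 lower at 24 h, and the other list 2 higher and 5 lower at 4 h and 4 higher and 3 lower at 24 h. Between the times the ER list had 7 higher and 1 lower and the other list 3 higher and 0 lower. Over all genes, in both directions together, 12.4%, 15.8% and 11.3% did so at 4 h, at 24 h and between the times, and 0.248%, 0.465% and 0.142% passed after adjustment. The 3 smallest p at 4 h among the ER genes belonged to PPP1R15B, a regulatory subunit of the phosphatase that acts on eIF2alpha, with 1016.1, 986.6 and 900.6 in PI cells and 644.3, 683 and 586.2 in untreated cells (log2 0.59, adjusted p = 0.0808), ATF4, the transcription factor of the PERK branch (0.53, adjusted p = 0.15), and DNAJC1 (0.78, adjusted p = 0.157). PPP1R15B at 24 h had 589, 598.4 and 552.2, a difference from 4 h of -0.72 (adjusted p = 0.0545). At 24 h the smallest p were those of HSPA13, an ER-associated HSP70 (0.86, adjusted p = 0.061), VCP, the ATPase that extracts ubiquitinated proteins (0.53, adjusted p = 0.0722), and DNAJC1 (0.84, adjusted p = 0.0867). Between the times, VCP and TRIB3 came after PPP1R15B, at 0.40 and 0.47 (adjusted p = 0.22 and 0.229). Among the other cytosolic and mitochondrial genes, the smallest p at 4 h were those of BAG2, PFDN1 and CHORDC1. These were lower by 0.44, 0.54 and 0.38, with adjusted p of 0.19 or more. At 24 h they were those of DNAJC7 (-0.425), UBB (0.39) and the dim HSPA1L (0.52), with adjusted p of 0.16 to 0.201. Between the times they were those of PPID (0.54), HSPB8 (0.53) and CHORDC1 (0.32), with adjusted p of 0.225 to 0.4. Of the 51 genes of this list, 23 were above 0 and 28 below at 4 h. At 24 h 34 were above and 17 below, and between the times 38 and 13. Of the 57 further ER genes, 29 were above 0 and 28 below at 4 h. Their counts were 31 and 26 at 24 h, and 33 and 24 between the times. The share of all genes above 0 was not computed. The median over all genes was 0.012 at 4 h, 0.0104 at 24 h and -0.004 between the times.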

How the data were processed

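The deposited values are one series matrix of intensity per probe set. Per the file values these intensities are linear and each array's 2% trimmed mean is 100; the submitters' processing notes name R 2.9.2 and RMA, while the step that summarised probe sets is not stated. Of 54675 probe sets, 62 controls were left out, 41091 are annotated to 1 gene, 1801 to several and 11721 are not listed. Entrez IDs of 41037 single-gene probe sets matched RefSeq.

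From the deposited intensities log2(intensity + 16) was computed, the brightest single-gene probe set was kept per gene (19775 genes), and limma 3.58.1 in R 4.3.3 fitted 1 mean per group over 9 arrays, with two-sided p-values adjusted over all genes by Benjamini-Hochberg at 0.05. P-values measure only the spread between these arrays. The design assumed log2 values; the files hold linear ones. Samples were grouped by the treatment label. Genes below the pseudocount make up 39.58%. Members and lists were chosen with earlier results of these data known. Per-array values are given for the 5 members with the smallest p in each comparison and for a fixed set of representative genes; from the wider lists, the 3 smallest p. Alternatives were other pseudocounts, scalings, a 40th percentile filter, means over probe sets, fits to the compared groups, a replicate block and leaving out each array. The fit was tested on simulated data. Correlations of same-numbered arrays' deviations were all between -0.112 and 0.089, so no pairing by number was seen. With 3 arrays per group such values cannot exclude a pairing. The number of arrays limits the precision.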

Additional observations from a re-analysis of the deposited data

How the results depend on the processing

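With 3 arrays per group and dim values set by the pseudocount, the count of genes called depends on the processing; the causes were not tested. The counts for 4 h, 24 h and 24 h against 4 h were 49, 92 and 28. They became 6, 1 and 9 with a pseudocount of 1, 273, 826 and 251 with a pseudocount of 64, 172, 560 and 127 with the 40th percentile filter, which tests fewer genes, and 2, 200 and 1 when only the compared groups were fitted. A replicate block gave 3, 1 and 3, and called no member. Whether the replicate numbers pair the arrays is not known. Quantile normalization gave 32 and median centring 18 at 4 h; the mean over probe sets gave 26 at 4 h and 49 at 24 h. Leaving out 1 array gave 3 to 15 genes at 4 h, 0 to 256 at 24 h and 6 to 18 between the times.

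Members called at 24 h were 0, but 5 with a pseudocount of 64 (DNAJB9, HSPA5, PDIA4, SEL1L and SERPINH1), 2 with the filter (SEL1L, adjusted p 0.0424, and SERPINH1, 0.0201), 1 with the compared groups only (SERPINH1) and 0 to 2 on leaving out 1 array (PDIA4 and SERPINH1 without 4 h replicate 2). The medians that moved were, for 24 h against 4 h under quantile normalization, -0.032 (ER) and 0.0386 (cytosolic); under the filter, -0.0061 (cytosolic) and 0.006 (ER minus cytosolic) at 4 h and 0.1558 and -0.1811 at 24 h; and over the mean of probe sets, -0.0633 (ER) and -0.0118 (difference) at 4 h and -0.0885, -0.1201 and 0.0316 (ER, cytosolic, difference) at 24 h. Leaving out 1 array, the 4 h medians ran from -0.1264 to 0.0115 (cytosolic), -0.0265 to 0.0309 (ER) and -0.0308 to 0.112 (difference). The 24 h medians ran from -0.0577 to 0.0587, -0.0942 to 0.0694 and -0.0365 to 0.0107 in that order, and those between the times from -0.0007 to 0.154, -0.0511 to 0.1114 and -0.1244 to 0.1121.

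Among the members named in each comparison, those that changed sign uncalled were HSP90B1 (at 4 h 0.001 with a pseudocount of 64, 0.0271 with quantiles and 0.4549 with probe set means, which also gave 0.6116 at 24 h and 0.1567 between the times), HSPD1 (quantiles, -0.076 at 24 h and -0.0472 between the times; probe set means, 0.1202 at 4 h) and XBP1 (probe set means, -0.0633 at 4 h and 0.0643 between the times). Others recomputed under scalings, probe set means and pseudocounts also changed sign: ERN1 at 24 h (-0.0885) and ATF6 between the times (-0.1088) with probe set means, PDIA6 between the times with quantiles (-0.0655) and probe set means (-0.0532), and P4HB between the times with median centring (0.0105). On leaving out 1 array, signs of the named members changed at 4 h for HSP90AA1 (-0.0705 to 0.1626), HSP90B1 (-0.1735 to 0.1973), HSPA5 (-0.0029 to 0.1219), HSPB1 (-0.3557 to 0.0936), HSPD1 (-0.1133 to 0.0337) and HSPH1 (-0.0238 to 0.2277). Between the times they changed for DNAJB1 (-0.011 to 0.1373) and HSPH1 (-0.0014 to 0.2501).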
